A study of Mus musculus with 16 samples.

Results

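Choroid plexus genes are described here in bulk RNA sequencing of mouse brain. The set was chosen by name, with earlier results of these data known: Ttr, Kl, Folr1, Kcnj13, Clic6, Aqp1, Prlr, Slc4a5, Sostdc1 and Otx2. All 10 were found once each among the 54532 entries of the count table, and all 10 passed the filter on low counts. The study had 16 libraries, all from female mice aged 9 months, and 4 groups of 4. With Ch25h intact there were Ch25h+/+ Tau- and Ch25h+/+ Tau+ mice, and without it Ch25h-/- Tau- and Ch25h-/- Tau+ mice. Ch25h encodes an enzyme that makes 25-hydroxycholesterol, -/- marks its loss, and Tau+ was taken to mean a tau transgene, whose promoter and mutation the labels do not give. The sample labels name frontal cortex as the tissue, while the series' own design note gives hippocampus. The labels do not say whether the libraries of a group came from separate animals, so the p-values below measure only the spread between these libraries, which may be technical.

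The choroid plexus is a fringe of epithelium over leaky capillaries that hangs in the brain ventricles and secretes cerebrospinal fluid. It is not part of the cortex or the hippocampus, but it lies against the hippocampus in the lateral ventricle and can be carried along in a dissection. Its epithelium makes large amounts of transthyretin, the product of Ttr, which carries thyroid hormone and helps to carry retinol. In bulk tissue, fewer cells of a type and less RNA per cell cannot be told apart.

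Library totals were 15530352 to 25602500 counts. Ch25h was detected in every Ch25h+/+ library, at 0.216 to 0.547 CPM (counts scaled to a common library size) in Tau- and 0.678 to 1.26 CPM in Tau+, and had 0 counts in every Ch25h-/- library, where 3 counts would be 0.117 to 0.193 CPM. Libraries also differed in a ribosomal RNA transcript, CT010467.1, which exceeded 1000 CPM of total counts in 7 libraries, here called rRNA-rich, and not in the other 9, called rRNA-poor. All 8 Ch25h+/+ libraries and Ch25h-/- Tau+ replicate 1 were rRNA-poor, and the rest were rRNA-rich, so within the rRNA-poor class Ch25h loss rests on 1 library. Of the genes listed here as cortical markers, Slc17a7 was at 1239 to 1750 CPM and Lamp5 at 158 to 244 CPM. These levels were not used to tell cortex from hippocampus.

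Because the levels of these genes moved together from library to library, the sequence in front of the start site is shown for 3 of them, as stretches of 250 bases from RefSeq on GRCm38.p6. That table held 11 promoter entries for 6 of the 10 genes. Kcnj13 (chr1:87394730-87394979, minus strand) and Prlr (chr15:10223656-10223905, plus strand, in front of an internal start) each hold 1 motif in capitals, and Kl (chr5:150952357-150952606, plus strand) holds none.
Kcnj13: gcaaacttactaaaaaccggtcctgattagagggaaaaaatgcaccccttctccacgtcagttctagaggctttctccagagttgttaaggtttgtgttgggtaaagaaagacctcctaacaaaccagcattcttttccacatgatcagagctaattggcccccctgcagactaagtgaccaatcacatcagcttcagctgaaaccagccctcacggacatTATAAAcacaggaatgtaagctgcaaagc
Prlr: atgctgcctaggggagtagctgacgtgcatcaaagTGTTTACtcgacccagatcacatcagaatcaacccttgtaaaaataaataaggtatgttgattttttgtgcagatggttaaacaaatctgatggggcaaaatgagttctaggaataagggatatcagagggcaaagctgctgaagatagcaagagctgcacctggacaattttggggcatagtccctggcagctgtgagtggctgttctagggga
Kl: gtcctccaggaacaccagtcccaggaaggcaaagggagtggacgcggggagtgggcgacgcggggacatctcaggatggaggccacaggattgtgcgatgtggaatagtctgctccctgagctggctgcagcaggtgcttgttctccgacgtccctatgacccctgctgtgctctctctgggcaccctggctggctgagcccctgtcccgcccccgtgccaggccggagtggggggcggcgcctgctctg

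The motifs searched were TAATCC, the core bound by Otx2, and GTAAACA, a forkhead core, both on either strand, and TATAAA on the gene's strand. TATAAA was found in 2 of the 11 entries (Kcnj13 and Otx2), TAATCC in 1 (Otx2) and GTAAACA in 1 (Prlr, read on the other strand as TGTTTAC). Of all 32851 RefSeq promoters of this length, 7.59% hold TATAAA, 6.25% hold TAATCC and 3.17% hold GTAAACA. A match describes letters only.

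Ttr differed widely between libraries of the same group. In Ch25h+/+ Tau- it was 7.21, 255, 1070.5 and 1324 CPM in replicates 1 to 4, and in Ch25h+/+ Tau+ it was 27.8, 2087, 26.2 and 1031 CPM. In Ch25h-/- Tau- it was 26.3, 1501, 71.9 and 129 CPM, and in Ch25h-/- Tau+ it was 41.8, 45.0, 2131 and 2518 CPM. Every group held at least 1 library under 50 CPM and at least 1 over 1000 CPM, and the groups overlapped. Group means were 664 ± 632 CPM in Ch25h+/+ Tau-, 793 ± 984 CPM in Ch25h+/+ Tau+, 432 ± 714 CPM in Ch25h-/- Tau- and 1184 ± 1326 CPM in Ch25h-/- Tau+ (SD, n = 4 each). The SD was larger than the mean in 3 of the 4 groups for Ttr, and in 25 of the 40 cases over all 10 genes.

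**Figure D1:**
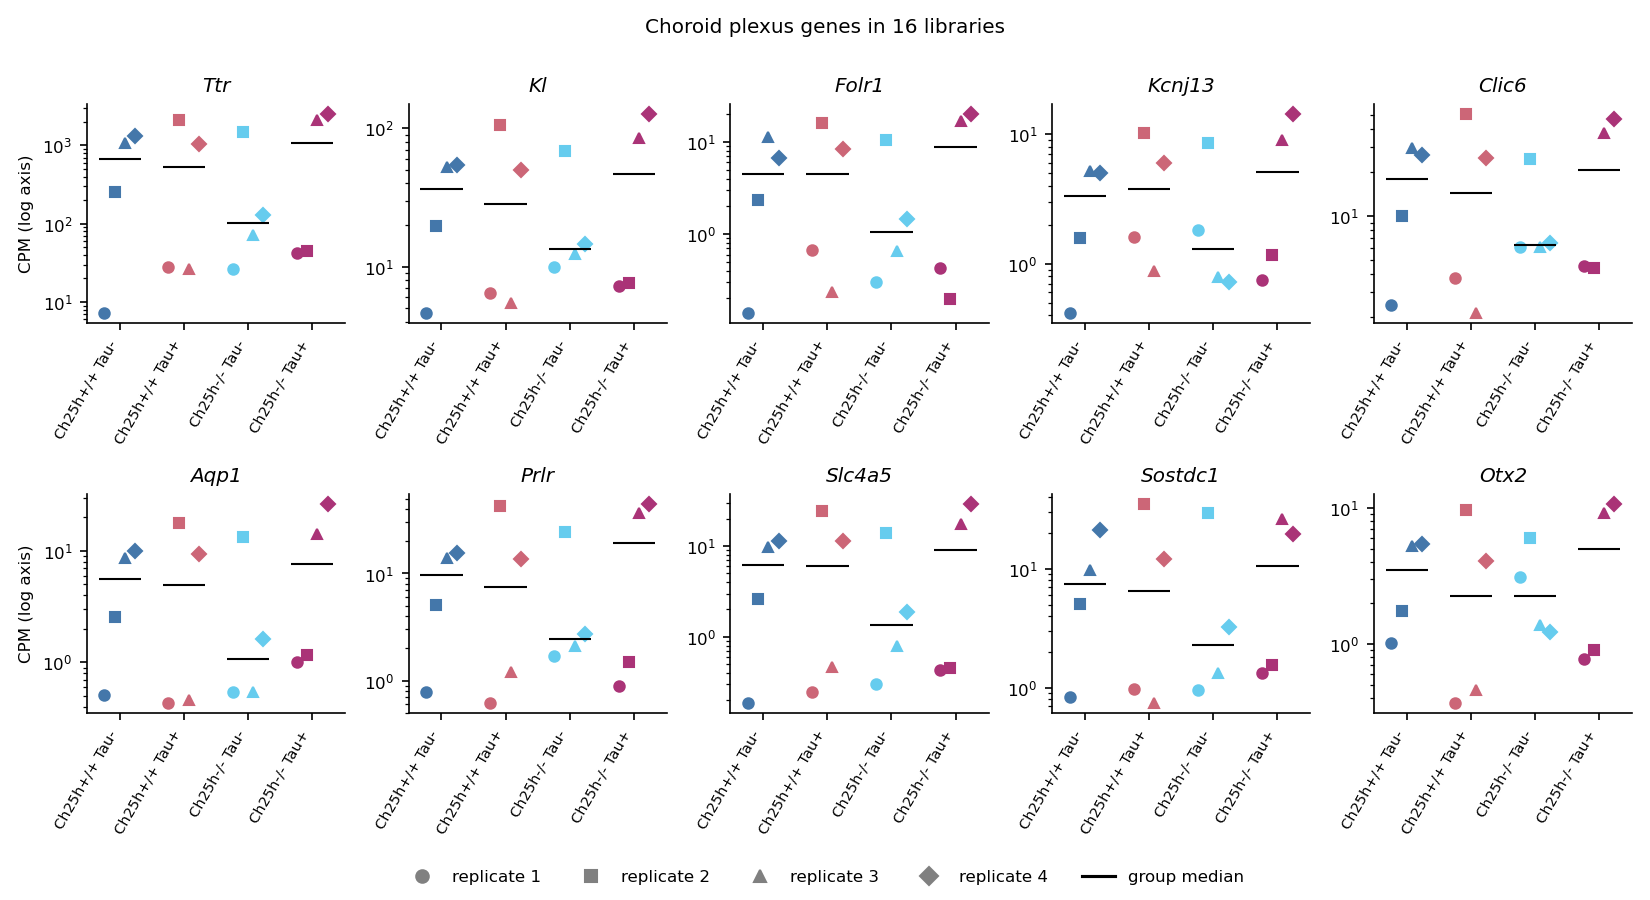
CPM of each of the 10 choroid plexus genes in single libraries, on a log axis, by genotype group. Each group spans low and high libraries for every gene, as with Ttr from 7.21 to 1324 CPM in Ch25h+/+ Tau-.

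Ordered by Ttr, the libraries fell on both sides of a gap between 255 and 1031 CPM, with 9 below and 7 above. Above it were 2 libraries each of Ch25h+/+ Tau-, Ch25h+/+ Tau+ and Ch25h-/- Tau+, and 1 of Ch25h-/- Tau-. For all 10 genes the same 7 libraries were the highest. Of the rRNA-rich libraries 3 lay above the gap and 4 below, and of the rRNA-poor ones 4 above and 5 below. The 10 genes together took from 18.2 CPM in Ch25h+/+ Tau- replicate 1 to 2857 CPM in Ch25h-/- Tau+ replicate 4, and Ttr made up 39.7% of that sum in the first and 88.1% in the second.

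Among the surface receptors, Kl encodes klotho, a co-receptor for the hormone FGF23. Kl was 4.62, 19.7, 52.7 and 54.3 CPM in Ch25h+/+ Tau- replicates 1 to 4, and 6.47, 106, 5.44 and 50.5 CPM in Ch25h+/+ Tau+. It was 9.94, 68.2, 12.3 and 14.5 CPM in Ch25h-/- Tau-, and 7.28, 7.60, 85.3 and 127 CPM in Ch25h-/- Tau+. The high libraries were those high in Ttr, and none of the groups stood apart. Folr1, the folate receptor that moves folate into the fluid, ran from 0.139 to 2.35 CPM below the Ttr gap and from 6.65 to 20.1 CPM above it. Prlr, the prolactin receptor, ran from 0.616 to 5.09 CPM below and from 13.7 to 44.5 CPM above.

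Of the transport proteins, Slc4a5, a sodium bicarbonate cotransporter, varied most. It was 0.185, 2.63, 9.71 and 11.5 CPM in Ch25h+/+ Tau- replicates 1 to 4, and 0.246, 24.5, 0.465 and 11.5 CPM in Ch25h+/+ Tau+. It was 0.301, 14.1, 0.783 and 1.90 CPM in Ch25h-/- Tau-, and 0.430, 0.455, 17.6 and 29.2 CPM in Ch25h-/- Tau+. Its lowest libraries held 4 counts, so those levels are known only loosely. Aqp1, a water channel of the apical membrane, ran from 0.431 to 2.57 CPM below the Ttr gap and from 8.59 to 26.4 CPM above it. Clic6, of the chloride intracellular channel family, ran from 2.14 to 9.96 CPM below and from 24.8 to 50.4 CPM above.

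Kcnj13 encodes the potassium channel Kir7.1. It ran from 0.416 to 1.81 CPM below the Ttr gap and from 5.04 to 14.3 CPM above it. The gene lies against Gigyf2, whose exons overlap it on the opposite strand and which was at 60.4 to 82.2 CPM in all libraries. The use of strand in the counting is not given in the sources used here, so reads of the pair cannot be told apart. Exon overlaps were also annotated for Prlr, with Gm21973 on the same strand (0 CPM in all libraries), and for Otx2, with Otx2os1 on the opposite strand (0 to 0.647 CPM) and Gm49154 on the same strand (0 to 0.114 CPM). The levels of Kcnj13, Prlr and Otx2 are therefore uncertain to the extent that the counting split or dropped shared reads.

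Sostdc1, a secreted antagonist of BMP and Wnt signals, ran from 0.744 to 5.03 CPM below the gap and from 9.80 to 35.1 CPM above it. Otx2, a homeodomain factor needed to form and keep the choroid plexus, had the smallest step across the gap. It was 1.02, 1.75, 5.26 and 5.39 CPM in Ch25h+/+ Tau- replicates 1 to 4, and 0.370, 9.63, 0.465 and 4.06 CPM in Ch25h+/+ Tau+. It was 3.13, 6.06, 1.39 and 1.23 CPM in Ch25h-/- Tau-, and 0.782, 0.910, 9.15 and 10.7 CPM in Ch25h-/- Tau+. Its highest library below the gap, Ch25h-/- Tau- replicate 1 at 3.13 CPM, was near its lowest above, and the step of 1.30-fold compares with 4.04-fold for Ttr. The place of Otx2 as the smallest step rests on Ch25h-/- Tau- replicate 1, as its next highest level below the gap was 1.75 CPM. The Ttr step likewise rests on 1 library, Ch25h+/+ Tau- replicate 2.

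Per kilobase of exon, Ttr was the highest of the set in 16 of 16 libraries, with a median level of 162 CPM per kilobase. Sostdc1 (2.32), Clic6 (2.11), Kl (1.83) and Kcnj13 (1.34) followed on that scale, then Folr1 (0.828), Aqp1 (0.797), Otx2 (0.578), Slc4a5 (0.390) and Prlr (0.255). The order after Ttr was loose: Sostdc1 exceeded Clic6 in 7 of 16 libraries, Folr1 exceeded Aqp1 in 8, and Otx2 exceeded Slc4a5 in 7. No other pair of neighbours kept its order in more than 13 libraries.

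The ratio of the highest to the lowest library was 349 for Ttr (95% counting interval 299 to 412), 158 for Slc4a5 (61.4 to 583) and 145 for Folr1 (49.2 to 707, from 3 counts in the lowest library). It was 23.6 to 72.3 for the other 7 genes. These intervals cover counting error only, and those of the first 3 genes overlap. Without Ch25h+/+ Tau- replicate 1, the lowest library for Ttr, the ratio was 96.2 for Ttr, 119 for Slc4a5, 103 for Folr1 and 19.7 for Kcnj13, so the place of Ttr rests on that library. The SD of log2(CPM + 0.5) within groups was 3.16 for Ttr, above that of every other gene tested, and 1.39 to 2.28 for the other 9, beside a median of 0.19 over all 17736 genes. Between 1.78% and 6.60% of the variance of each member lay between groups, where the median gene had 30.1%. The groups also differed in rRNA class, whose part in either share was not tested. The median over the 10 genes was 2.78%, and with single libraries left out it ran from 1.02% (without Ch25h-/- Tau- replicate 1) to 10.03% (without Ch25h-/- Tau- replicate 2).

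Ratios to Ttr were higher in all libraries below the gap than in any above it for 3 of the 9 other genes, Kl, Otx2 and Clic6, and overlapped across the gap for the other 6. Above the gap, Kl had 40.1 to 50.8 counts per 1000 counts of Ttr, and below it 77.2 to 641. Otx2 had 3.94 to 4.92 above and 6.87 to 141 below, and Clic6 had 16.5 to 27.2 above and 39.0 to 340 below. Slc4a5 had 8.27 to 11.7 above and 8.85 to 25.6 below, and Folr1 had 5.02 to 10.4 above, wholly within its 4.33 to 24.3 below. Ttr is the denominator of these ratios and also set the gap, so they are given as a description with no test.

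**Figure D2:**
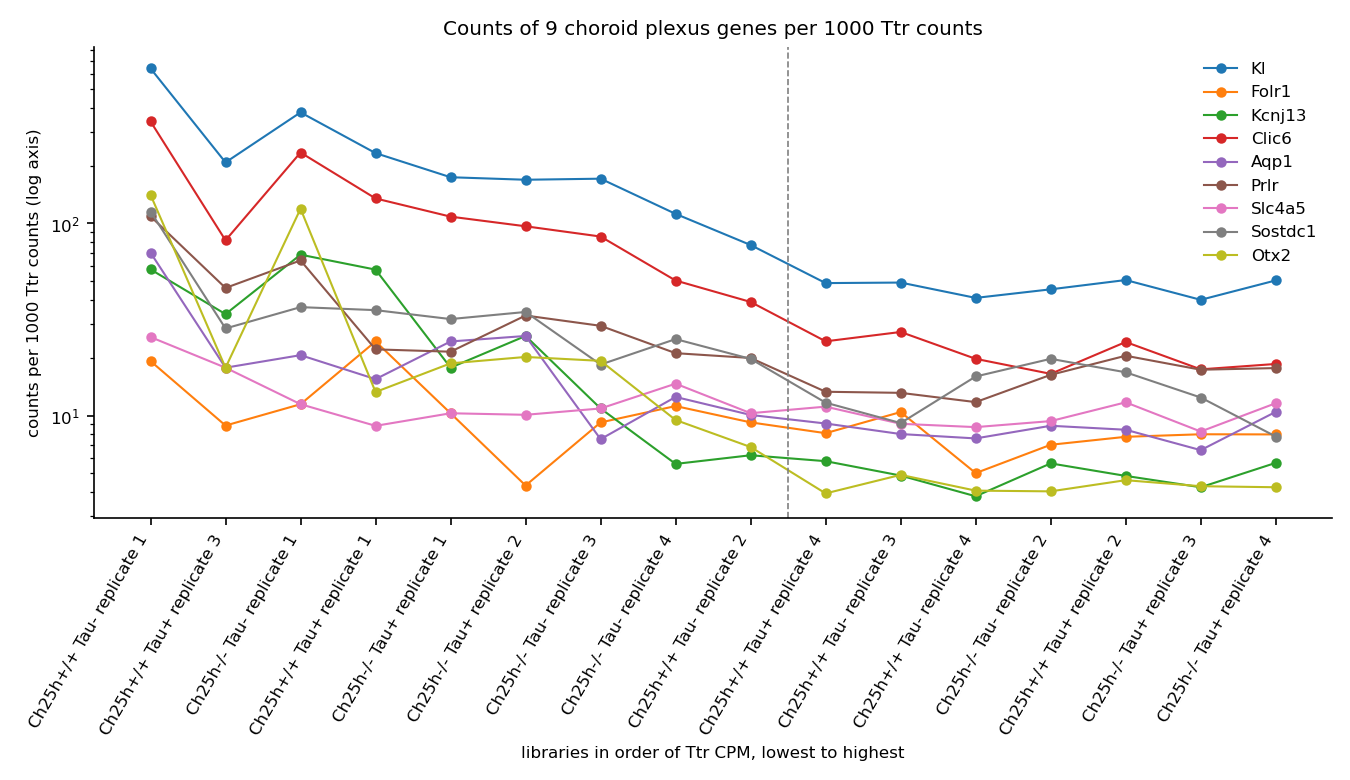
Counts of each other gene per 1000 counts of Ttr in single libraries, on a log axis, with libraries in order of Ttr CPM from lowest to highest. Libraries above the Ttr gap lie close together, as for Kl at 40.1 to 50.8, and those below spread to 641.

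Within each side of the gap most of the other 9 genes followed Ttr, with exceptions on both sides. Below it (n = 9), Pearson's r of log2(CPM + 0.5) with Ttr was 0.92 for Kl (Spearman's rho 0.90) and 0.92 for Slc4a5 (rho 0.82), with adjusted p = 0.0018 and 0.0017 by exact permutation. It was 0.82 to 0.90 for Folr1, Clic6, Aqp1, Prlr and Sostdc1. Kcnj13 (r 0.33, rho 0.050, exact permutation adjusted p = 0.436) and Otx2 (r 0.28, rho 0.38, adjusted p = 0.471) did not pass. In all, 7 of 9 genes passed below the gap, adjusted over the 9 relations, but 4 without Ch25h+/+ Tau- replicate 2, the library nearest to the gap. Without the 2 libraries farthest from the median of Ttr, r stayed at 0.62 to 0.94 for those 7 genes, and for Kcnj13 it was -0.66.

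Above the gap (n = 7), r was 0.98 for Prlr and 0.98 for Otx2 (rho 0.96 for both), each with an exact permutation adjusted p of 0.0036. Sostdc1 had r 0.70 and rho 0.50 and did not pass (exact permutation adjusted p = 0.0921), and Clic6 passed by r (0.84, adjusted p = 0.0455) but not by rho (0.64, adjusted p = 0.156). In all, 8 of 9 passed by r, and 6 to 8 with single libraries left out. Without the 2 farthest libraries r was 0.73 to 0.97 for the 9 genes. All values of a library share its depth and scaling, and each side holds too few libraries of a class for values within the rRNA classes.

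**Figure D3:**
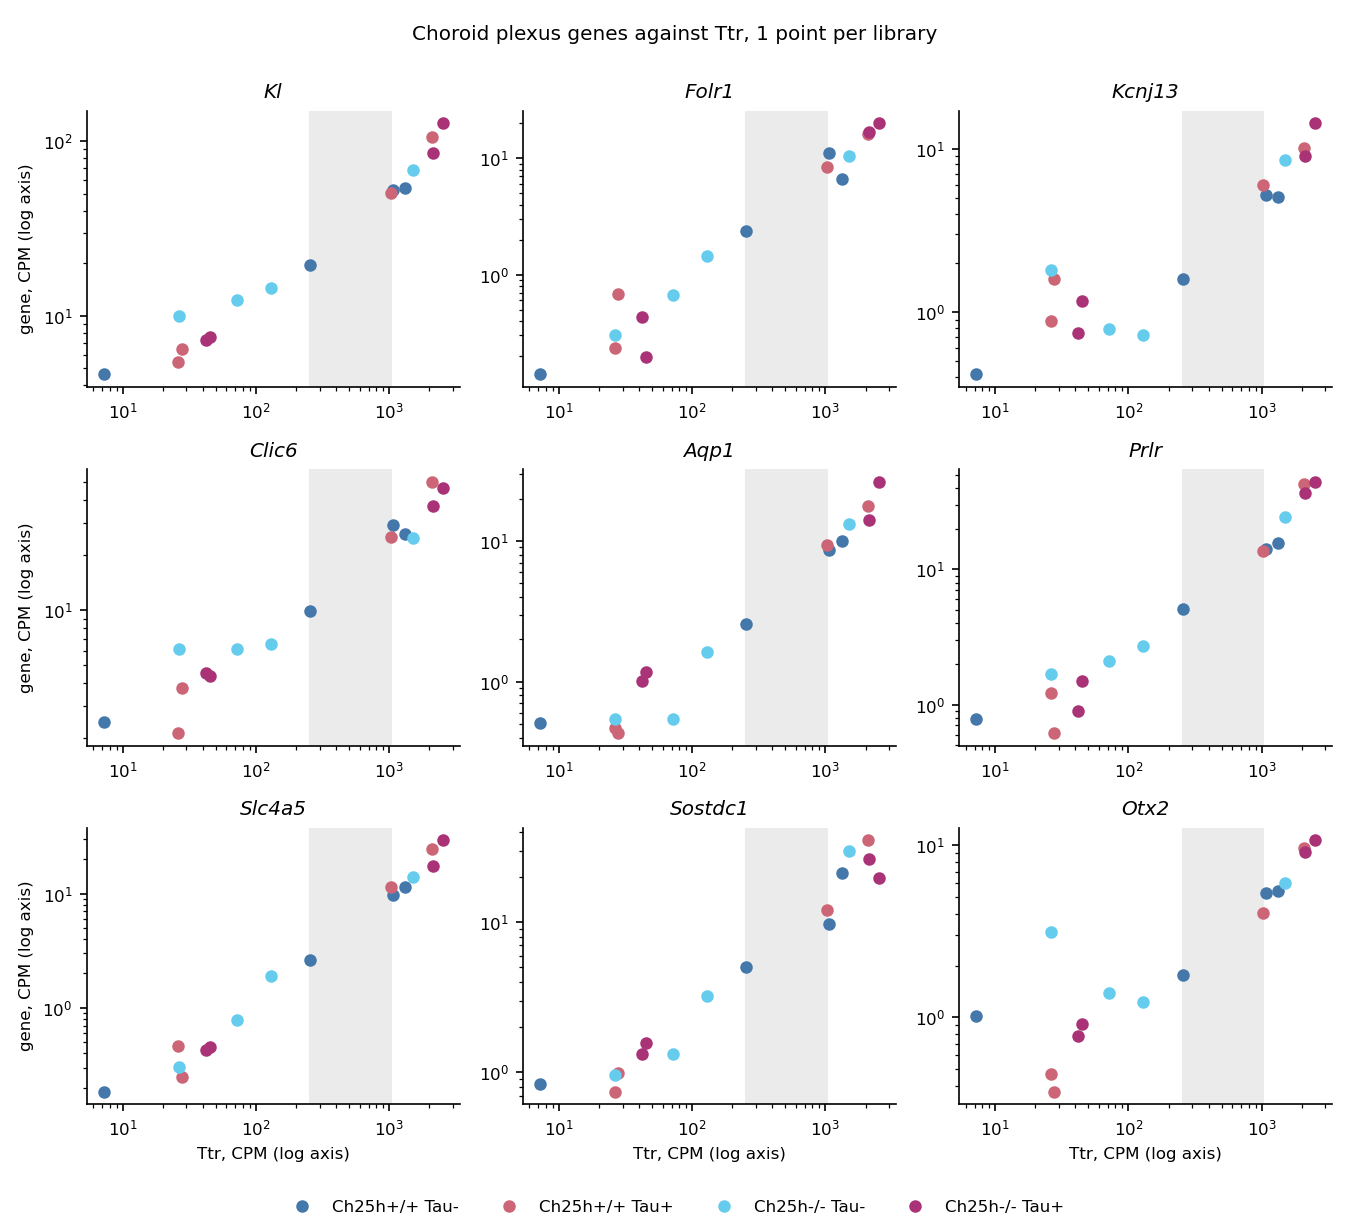
CPM of each other gene against CPM of Ttr in the 16 libraries, both on log axes, with the gap of Ttr between 255 and 1031 CPM. Otx2 and Kcnj13 follow Ttr least closely below the gap (r at least 0.51 without Ch25h-/- Tau- replicate 1) and rise with Ttr above it.

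In Ch25h+/+ mice, tau status did not separate these genes. By edgeR's quasi-likelihood test 0 of 10 passed an adjusted p of 0.05, where 1.56% of all genes tested did. The Ttr difference, Tau+ minus Tau-, was 0.26 on the log2 scale (SE 1.48, 95% interval -2.86 to 3.37, adjusted p = 0.993). All 10 estimates were above 0, with a median of 0.37 beside -0.01 over all genes, and the highest was Prlr at 0.73. Without Ch25h+/+ Tau+ replicate 2 all 10 were below 0, with Ttr at -0.85, and without Ch25h+/+ Tau- replicate 1 5 of 10 were above 0. Markers of neighbouring tissue had higher medians in this comparison: 0.84 for meningeal fibroblast genes, with 12 of 12 above 0, and 0.71 for border macrophage genes, with 8 of 8 above 0 and 1 called, Ms4a7 at 1.83. The other marker lists had medians from -0.45 (striatum, 0 of 6 above 0) to 0.64 (blood, 4 of 5 above 0), and 1 thalamus gene was called higher. The part of all these lists in the estimates of the choroid plexus genes was not tested.

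In Ch25h-/- mice, tau status gave higher estimates but again 0 of 10 calls, where 0.0395% of all genes passed. Ttr was at 1.45 (SE 1.51, 95% interval -1.73 to 4.63, adjusted p = 0.99998), Folr1 at 1.52 and Sostdc1 at 0.47. The median over the 10 genes was 1.25, beside 0.01 over all genes, and all 10 were above 0. Without Ch25h-/- Tau- replicate 2, the single high library of its group, Ttr was at 3.95, and 6 genes had an unadjusted p under 0.05, as did 4.39% of all genes in that fit, but the adjusted p was 0.99987 for each. Without Ch25h-/- Tau+ replicate 1, which leaves rRNA-rich libraries in both groups, Ttr was at 1.85 (adjusted p = 0.99969).

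Ch25h loss in Tau+ mice gave 0 of 10 calls, where 3.55% of all genes passed. Ttr was at 0.58 (SE 1.49, 95% interval -2.55 to 3.70, adjusted p = 0.846), and Sostdc1, at -0.03, was the 1 gene below 0. The median was 0.46, beside 0.00 over all genes. Without Ch25h-/- Tau+ replicate 4, 0 of 10 estimates were above 0. Meningeal fibroblast genes had a median of -0.54, with 0 of 12 above 0, and border macrophage genes -0.63, with 1 of 8 above 0 and 1 called lower, again Ms4a7 at -1.39. The other marker lists had medians from -0.26 (fenestrated endothelium) to 0.16 (other choroid plexus epithelium), and 1 thalamus gene was called lower. With the rRNA class as a covariate 9 of the 10 estimates turned negative, Ttr to -4.25, and none passed. That fit separates class from genotype through Ch25h-/- Tau+ replicate 1 alone, so the part of class in the estimates cannot be told apart from that library.

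Ch25h loss in Tau- mice gave 0 of 10 calls, where 1.03% of all genes passed. Ttr was at -0.62 (SE 1.49, 95% interval -3.75 to 2.51, adjusted p = 0.844), and all 10 estimates were below 0, with a median of -0.38 beside 0.01 over all genes. Without Ch25h-/- Tau- replicate 2 Ttr was at -3.13 (adjusted p = 0.305), while 7 of 10 estimates were above 0 without Ch25h+/+ Tau- replicate 4 and 5 of 10 without Ch25h+/+ Tau- replicate 3. The groups differ in rRNA class throughout, so genotype and class cannot be told apart here.

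The interaction, the tau effect in Ch25h-/- minus that in Ch25h+/+, gave 0 of 10 calls, where 0.0338% of all genes passed. Ttr was at 1.20 (SE 2.11, 95% interval -3.22 to 5.62, adjusted p = 0.99996), and Sostdc1 was at 0.04. Over the 5 comparisons, 0 of the 50 estimates had an unadjusted p under 0.05 in edgeR, and 0 did in DESeq2. Over all genes 12.4% of such tests did in edgeR. The share was 9.38% in edgeR and 9.42% in DESeq2 for tau in Ch25h+/+, 3.68% and 3.54% for tau in Ch25h-/-, 23.9% in both for Ch25h loss in Tau+, 20.9% and 21.2% for Ch25h loss in Tau-, and 4.13% and 4.07% for the interaction. The 5 comparisons share groups, so their estimates are not independent. No member was free of overlap between the groups in any of the 4 pairwise comparisons. Of all genes tested, 5.86% were free of overlap for tau in Ch25h+/+, 2.14% for tau in Ch25h-/-, 10.2% for Ch25h loss in Tau+ and 16.2% for Ch25h loss in Tau-. SEs of 0.87 to 2.11 on the log2 scale mean that differences of several-fold were not detectable with these libraries.

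**Figure D4:**
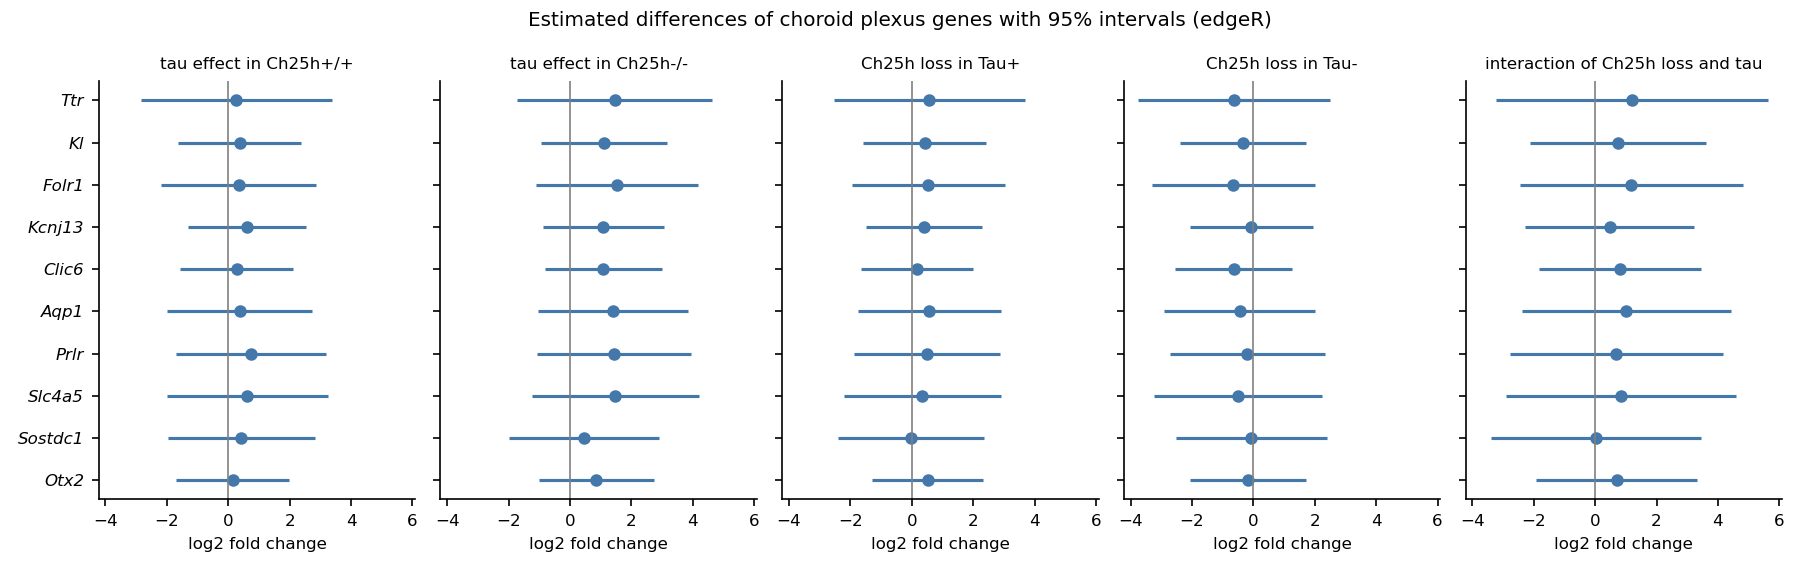
Log2 fold change of each choroid plexus gene in the 5 comparisons, with 95% intervals from edgeR. Every interval crosses 0, as for Ttr in Ch25h-/- mice from -1.73 to 4.63.

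Other genes of the choroid plexus epithelium moved with the set. Of 44 listed, 42 were in the table and tested, and 0 were called in any of the 5 comparisons by edgeR. An unadjusted p under 0.05 was reached in 3 of the 210 tests, among them Slc13a4 for tau in Ch25h+/+, beside the 12.4% over all genes. Their median differences were 0.35 for tau in Ch25h+/+, 0.85 for tau in Ch25h-/-, 0.16 for Ch25h loss in Tau+, -0.29 for Ch25h loss in Tau- and 0.37 for the interaction. Among 15482 genes with a mean of at least 1 CPM, the 10 most like the mean log2 level of the set over the 16 libraries were all on that list. They were Tmem72 (r 0.996), Mfrp (0.99), Cldn2 (0.99), Kcne2 (0.99), 1500015O10Rik (0.98), Enpp2 (0.98), F5 (0.98), Lbp (0.98), Steap1 (0.97) and Prr32 (0.96). These r describe libraries that fall on both sides of the gap. The list of choroid plexus epithelium genes was chosen with earlier results of these data known, so the overlap is a description and no test. Ranked by Spearman's rho, 8 of these 10 genes were again among the top 10, and 9 or 10 were with single libraries left out. Within the libraries below the gap r was 0.97 for Tmem72 and 0.57 for Prr32, and above it 0.97 and 0.88.

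Tmem72 and Kcne2, a potassium channel subunit, were near 0 in the lowest libraries, at 0.046 and 0.060 CPM, and reached 38.2 and 14.4 CPM. Enpp2, which encodes autotaxin and is also made by other brain cells, ran from 162 to 1233 CPM, a narrower range. Slc12a2, a sodium, potassium and chloride cotransporter and the next highest of the list, ran from 60.1 to 114.6 CPM and followed the set less closely (r 0.70). Of the 40 listed genes compared, 28 had r of at least 0.9, out of 38 such genes in all, a count with the same limit. Slc13a4 (r 0.42), also a meningeal gene, was least like the set.

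Summed levels of other marker lists spanned less than the 157-fold of the 10 genes, which was 74.8-fold without Ch25h+/+ Tau- replicate 1. The other choroid plexus epithelium genes, of which Enpp2 was the highest, summed to 499 to 2398 CPM, a 4.80-fold span. The summed level of 14 ependymal and motile cilia genes was 14.4 to 43.1 CPM, of 12 meningeal fibroblast genes 87.3 to 289.9 CPM, of 8 border macrophage genes 6.50 to 22.6 CPM and of 2 genes of fenestrated endothelium 10.5 to 19.2 CPM. No gene of these lists was at 0 in every library. Ependymal markers moved with Ttr across the gap: their sum was 14.4 to 31.3 CPM below it and 28.8 to 43.1 CPM above it, and in all 4 groups the libraries above the gap had higher sums than those below. In Ch25h-/- Tau- that rests on 1 library at 34.1 CPM, beside 22.1 to 31.3 CPM in the others. Meningeal sums overlapped across the gap, at 87.3 to 289.9 CPM below and 90.9 to 254 CPM above.

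Genes listed as hippocampal markers summed to 121 to 275 CPM, of which Wfs1 alone was at 86.4 to 205 CPM. Those listed as cortical summed to 1868 to 2511 CPM, of which Slc17a7 alone was at 1239 to 1750 CPM. Which tissue was taken was not tested with these sums. Sums were 160 to 343 CPM for striatum, 88.0 to 131 CPM for thalamus, 1874 to 4568 CPM for myelin and 2.32 to 37.7 CPM for blood. The highest genes were Foxj1 and Rsph1 (ependymal), Col1a2 and Slc13a3 (meningeal), Mrc1 and F13a1 (border macrophage), Plvap and Esm1 (fenestrated endothelium), Wfs1 and Fibcd1 (hippocampus), Rora and Ramp3 (thalamus), and Hbb-bs and Hba-a1 (blood). Within the 9 libraries below the gap, Pearson's r of each sum with Ttr, given as a description, lay between -0.31 (blood) and 0.24 (fenestrated endothelium) for the lists other than choroid plexus. Within the 7 above it, r was -0.87 for cortex, 0.83 for thalamus, 0.73 for blood, -0.71 for myelin, -0.63 for striatum and -0.50 for ependymal markers. It was 0.37 for hippocampus and between -0.12 and 0.13 for border macrophage, fenestrated endothelium and meningeal fibroblast markers. The part of these tissues in the levels of the choroid plexus genes was not tested.

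**Figure D5:**
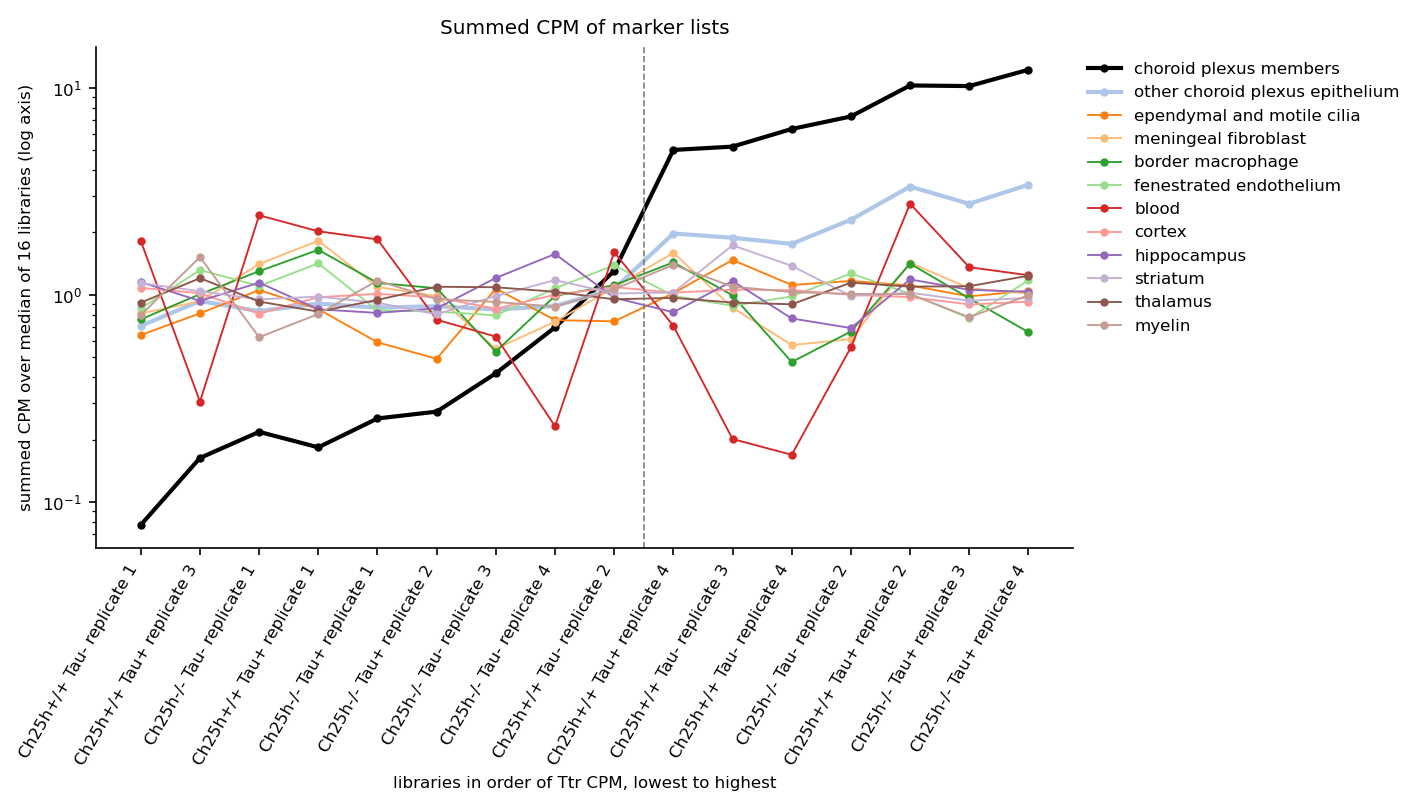
Summed CPM of each marker list in single libraries, divided by the list's median over the 16 libraries, on a log axis. Libraries are in order of Ttr. Before that division the 10 choroid plexus genes span 18.2 to 2857 CPM, the other choroid plexus genes 499 to 2398 CPM and the ependymal markers 14.4 to 43.1 CPM.

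The mean log2 level of the 10 genes was also put into the fit of all genes as a covariate. The number of genes called for Ch25h loss in Tau+ went from 629 to 501, of which 485 were shared, and for Ch25h loss in Tau- from 182 to 224, with 171 shared. With Ttr alone as the covariate the latter moved the other way, to 153, with 136 shared, and Ch25h loss in Tau+ went to 487. For tau in Ch25h+/+ it went from 277 to 295, with 273 shared, and for tau in Ch25h-/- it was 7 both times, the same genes. The interaction went from 6 to 11, with all 6 among them. The score is made from the same libraries, and these counts describe how far calls moved. Leaving out single libraries, with no covariate, moved them further: from 108 (without Ch25h+/+ Tau+ replicate 4) to 1691 (without Ch25h-/- Tau+ replicate 1) for Ch25h loss in Tau+, and from 3 (without Ch25h+/+ Tau- replicate 1) to 1306 (without Ch25h+/+ Tau+ replicate 1) for Ch25h loss in Tau-. For tau in Ch25h+/+ the range was 160 to 299, for tau in Ch25h-/- 6 to 13 and for the interaction 0 to 22.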

How the data were processed

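RNA of 16 mouse brain libraries was extracted with a column kit and made into libraries with a SMARTer mRNA kit, per the labels' protocols. The authors deposited 1 table of raw read counts per gene and library, with no normalization. STAR 2.7 and the build GRCm38 (mm10) are named per the submitters' processing notes, while the counting program, annotation and use of strand are not given in the sources used here. Libraries of a group were numbered by record order. In the table, 105 entries repeated a symbol and 27 symbols had become dates.

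Counts were filtered with filterByExpr, which left 17736 genes and 99.9% of the counts. Group differences came from the two-sided quasi-likelihood test of edgeR 4.0.16 with TMM scaling in R 4.3.3, in 1 fit of 16 libraries with a mean per group, adjusted over all genes by Benjamini-Hochberg at 0.05. On simulated counts of 17407 genes for the tau effect in Ch25h+/+, 87% of genes changed 2-fold were recovered and 100% of those changed 4-fold. That recovery is over genes of all spreads and does not apply to the members, whose biological coefficient of variation was 0.836 to 1.28 beside a median of 0.133. CPM used TMM-scaled library sizes, and correlations used log2(CPM + 0.5) with exact two-sided permutation tests. The correlation was planned over all 16 libraries and is given within each side of the Ttr gap, a choice made after seeing the data. Over all 16 libraries, which span the gap, r was 0.89 (Otx2) to 0.98 (Slc4a5). Gene overlaps and exon lengths came from GENCODE M21 (GRCm38).

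The members and all lists were chosen with earlier results of these data known. Named are the members, the 10 other genes most like them, and from each marker list its summed level and the 2 highest genes; Tmem72, Kcne2, Slc13a4 and Ms4a7 were picked out for comment after their values were seen. Alternatives were other size factors, no filter, DESeq2 1.42.0, a robust spread, only the libraries compared, rRNA class as a covariate, a pseudocount of 2, CPM on total counts, Spearman's rho, Ttr alone as the score, and leaving out each library. Results on some listed genes are not reported here.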

Additional observations from a re-analysis of the deposited data

Results flagged for a closer look

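Ch25h-/- Tau- replicate 2 lay far above the other 3 libraries of its group for 9 of the 10 genes, by a gap divided by the group's range that exceeded Dixon's 95% critical value for 4 samples. Its levels were 1501 CPM for Ttr, 68.2 for Kl, 10.6 for Folr1, 8.47 for Kcnj13, 24.8 for Clic6, 13.3 for Aqp1, 24.5 for Prlr, 14.1 for Slc4a5 and 29.6 for Sostdc1. Otx2, at 6.06 CPM beside a next value of 3.13 CPM, did not pass. These were the 9 of 40 gene and group cases that passed. On log2(CPM + 0.5), a scale chosen after seeing the data, 2 of the 9 passed, Clic6 at 0.958 and Prlr at 0.839, and Ttr was at 0.608, so most of these cases depend on the scale. Chance flags about 1 in 20 groups where values are normally distributed, and the genes of 1 library are not independent cases. The other 3 groups each held 2 high libraries, a pattern that this measure cannot mark.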

How the results depend on the processing

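No choroid plexus gene passed the adjusted threshold under any alternative run, with a lowest adjusted p of 0.275 over all of them (edgeR or DESeq2). Of the 290 alternative estimates that kept all libraries or only those compared, 10 changed sign, all for Ch25h loss in Tau+. With the rRNA class as a covariate these were Ttr at -4.25, Kl at -2.54, Folr1 at -3.89, Kcnj13 at -2.65, Clic6 at -2.18, Aqp1 at -2.79, Prlr at -4.03, Slc4a5 at -4.41 and Otx2 at -2.24, and with DESeq2 Sostdc1 at 0.0019. The cause was not tested. Leaving out single libraries changed the sign in 70 of 800 estimates, touching 33 of the 50. For tau in Ch25h+/+ the ranges were Ttr -0.85 to 0.84, Kl -0.63 to 0.73, Folr1 -0.68 to 1.09, Kcnj13 -0.10 to 1.01, Clic6 -0.68 to 0.68, Aqp1 -0.62 to 0.85, Prlr -0.73 to 1.14, Slc4a5 -0.52 to 1.14, Sostdc1 -0.96 to 1.24 and Otx2 -0.99 to 0.51. For tau in Ch25h-/- only Sostdc1 changed sign, at -0.27 to 2.697. For Ch25h loss in Tau+ they were Ttr -0.11 to 1.67, Kl -0.36 to 1.40, Folr1 -0.16 to 1.54, Kcnj13 -0.40 to 1.10, Clic6 -0.44 to 1.11, Aqp1 -0.41 to 1.56, Prlr -0.19 to 1.95, Slc4a5 -0.62 to 1.48, Sostdc1 -0.76 to 1.35 and Otx2 -0.063 to 1.64. For Ch25h loss in Tau- they were Kl -1.43 to 0.025, Folr1 -2.64 to 0.10, Kcnj13 -1.48 to 0.33, Aqp1 -2.57 to 0.026, Prlr -2.03 to 0.21, Slc4a5 -2.58 to 0.014, Sostdc1 -2.31 to 0.75 and Otx2 -0.82 to 0.12. For the interaction they were Kl -0.032 to 1.83, Kcnj13 -0.33 to 1.87, Slc4a5 -0.11 to 2.91 and Sostdc1 -0.77 to 2.27. The genes related to Ttr below its gap numbered 4 to 7 with single libraries left out. Over all genes, DESeq2 called 424 for tau in Ch25h+/+, 14 for tau in Ch25h-/-, 1501 for Ch25h loss in Tau+, 1048 in Tau- and 55 for the interaction. With no filter the calls were 28 for tau in Ch25h-/-, 522 for Ch25h loss in Tau- and 57 for the interaction, and with the class covariate 10 for Ch25h loss in Tau+, 0 in Tau- and 3 for the interaction. With only the libraries compared, Ch25h loss gave 106 calls in Tau+ and 1229 in Tau-. No paired analysis was possible because replicates were numbered only by record order and the labels give no pairing. Levels of a few counts, as for Slc4a5 and Folr1 in the lowest libraries, limit what can be said of ratios there.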
